A study of Homo sapiens with 20 samples.

Results

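The genes described here handle zinc in Jurkat T cells. They are the zinc exporter SLC30A1, the zinc importer SLC39A10, the zinc sensor MTF1 and the metallothioneins MT1E, MT1F, MT1X and MT2A. These 7 genes, of 60719 in the deposited gene table, were matched by gene name and were selected on their known roles and on levels across time and line that had already been seen in these libraries. Differences with time and between the lines are therefore given as a description without a test, and only the treatments, which the choice did not use, were tested for these genes. Of the 7 genes, 6 passed the filter on low counts and MT1F did not.

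RNA was sequenced from 20 cultures of 2 human lines, 10 libraries per line. WT cells were Jurkat T lymphoblasts, a T cell leukemia line, and CD47- cells were JinB8, a somatic mutant of Jurkat that lacks the surface receptor CD47 and is 1 clone. In each line 1 library was untreated (UT) at 1 h. The others came from 1, 3 and 6 h, with a single library each for cells on plates coated with antibodies to CD3 and CD28 (CD3+CD28), which engage the T cell receptor and its co-receptor, for cells on the same coating with thrombospondin-1, a secreted ligand of CD47 (CD3+CD28+TSP1), and for cells given TSP1 alone. The dose of TSP1 was 1 μg/mL, and the coating solution held 4 μg/mL of anti-CD28. All groups shared a serum-free medium (HITES) that holds hydrocortisone, insulin, transferrin and selenite. No condition was sequenced more than once, so an SD over libraries of a line also holds treatment and time, and p-values measure only the spread between these single cultures.

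Zinc is a cofactor of many enzymes and transcription factors, and free zinc in the cytosol is kept low. SLC30A1 (ZnT1) carries zinc out of the cell across the plasma membrane, SLC39A10 (ZIP10) carries it in, and metallothioneins are small cysteine-rich proteins that bind zinc, copper and cadmium. MTF1 is a zinc finger transcription factor that binds metal response elements when zinc rises and thereby switches on SLC30A1 and the metallothionein genes. Glucocorticoids also induce MT2A.

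The promoters of the members are shown first because these short elements tie the sensor to its target genes. RefSeq promoter windows on GRCh38.p14 were found for 5 of the 7 genes, and MT1E and MT1F had none in the table used. Each window ran from 250 bases before to 50 bases after the annotated start, and each was searched on both strands for the core of the metal response element, spelled TGCACNC or TGCGCNC. The 250 bases upstream of the start of MT2A (chr16:56608334-56608583, plus strand), MT1X (chr16:56682220-56682469, plus strand) and SLC30A1 (chr1:211579162-211579411, minus strand) are printed 5′ to 3′ in the direction of the gene, with matches in capitals.
MT2A: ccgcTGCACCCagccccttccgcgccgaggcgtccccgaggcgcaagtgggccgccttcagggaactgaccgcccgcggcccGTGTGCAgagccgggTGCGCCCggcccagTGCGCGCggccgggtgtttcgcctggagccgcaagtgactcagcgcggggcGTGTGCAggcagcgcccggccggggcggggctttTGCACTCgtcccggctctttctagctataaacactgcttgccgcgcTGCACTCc
MT1X: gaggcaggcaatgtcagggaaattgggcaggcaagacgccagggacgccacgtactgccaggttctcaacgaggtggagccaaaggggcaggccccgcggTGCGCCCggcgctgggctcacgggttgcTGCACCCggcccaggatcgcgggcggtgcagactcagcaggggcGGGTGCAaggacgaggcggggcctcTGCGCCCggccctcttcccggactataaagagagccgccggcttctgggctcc
SLC30A1: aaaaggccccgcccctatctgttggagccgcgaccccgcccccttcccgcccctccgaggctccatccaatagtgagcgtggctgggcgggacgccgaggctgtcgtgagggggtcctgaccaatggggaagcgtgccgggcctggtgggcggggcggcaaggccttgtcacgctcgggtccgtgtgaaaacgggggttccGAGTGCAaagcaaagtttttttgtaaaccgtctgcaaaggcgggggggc

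MT2A held 8 matches in its whole window, 5 on the strand of the gene and 3 on the other, and the last of them began 31 bases after the start. MT1X held 4 matches. SLC30A1 held 2, the first 49 bases before the start and the second 25 bases after it. No matches overlapped each other. Of 35116 promoter windows of the same length, 29.6% held at least 1 match, 8.60% at least 2, 0.601% at least 4 and 0.0199%, or 7 windows, at least 8. The MTF1 window held none of these letters. SLC39A10 had 2 windows, which overlap, with 0 matches in the first and 1 in the second. The windows of MT2A, MT1X, SLC30A1 and MTF1 were 72.0%, 67.0%, 68.0% and 69.7% G and C, and those of SLC39A10 49.7% and 58.7%. A match describes these letters and was not tested as a binding site.

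**Figure D1:**
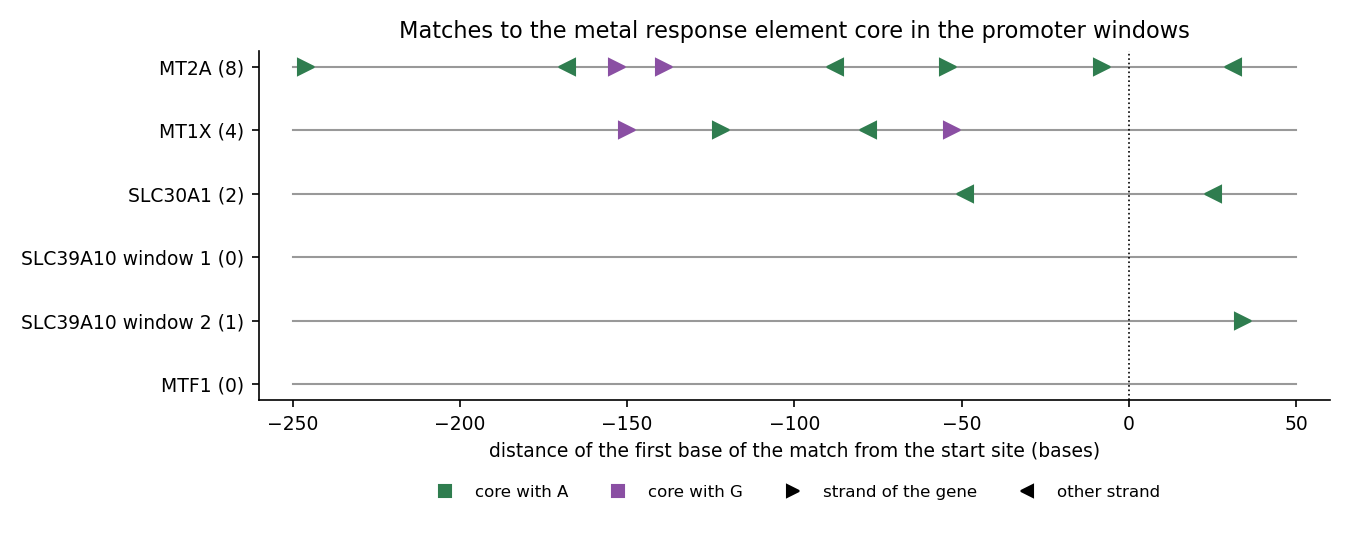
Position of matches to the metal response element core in 6 promoter windows of 5 genes, as the distance in bases of the first base of the match, read along the gene, from the annotated start (dotted line). Triangles point along the strand of the match, colours mark the spelling of the core, and the number of matches stands in brackets, from 8 in MT2A to 0 in MTF1.

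Library totals ranged from 16107921 to 31737616 expected counts, and 3 counts, taken as the limit of detection, corresponded to 0.0979 to 0.156 CPM (counts scaled by library size and TMM factors). All 9 listed T cell markers had a mean of at least 1 CPM in both lines. Among markers of other cell types, the B cell marker CD79A was at 33.9 to 53.9 CPM in WT against 4.15 to 9.97 CPM in CD47- cells, while MS4A1 and PAX5 had means of 0.0684 and 0.0995 CPM. The sum of 4 fibroblast markers was 1.89 to 6.69 CPM in WT against 7.70 to 12.3 CPM in CD47- cells. Among them PDGFRB was higher in CD47- cells, at 0.480 to 1.51 against 3.17 to 8.93 CPM. COL1A1 was higher there too, with means of 1.96 against 4.31 CPM. COL1A2 and DCN went the other way, with means of 1.21 against 0.289 CPM and 0.270 against 0.116 CPM. The sums of 4 myeloid and 4 epithelial markers were at most 1.76 and 3.74 CPM. The part of these markers in the differences between the lines was not tested. CD47 mRNA was at 317 ± 42.1 CPM in the WT line and at 147 ± 12.6 CPM in the mutant (mean ± SD, n = 10 libraries each). The CD47- CD3+CD28+TSP1 library of 3 h stood apart, with a mean correlation of 0.970 with its own line against 0.976 to 0.984 for all others and the lowest total count.

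SLC30A1 (ENSG00000170385.10, chr1:211571568-211579161, minus strand, GRCh38), the exporter, had the largest change with time of the members. In WT cells its level was 221 CPM untreated, 177 with CD3+CD28, 191 with CD3+CD28+TSP1 and 205 with TSP1 at 1 h. At 3 h the values in the same order, without an untreated library, were 117, 109 and 109 CPM, and at 6 h they were 39.1, 40.2 and 46.2 CPM. The 3 time points did not overlap in WT, and the level was lower at each step in all 3 courses, TSP1 alone included. The mean of the 6 h libraries was 4.75-fold below that of 1 h, and within courses the change was -2.18 ± 0.0489 on the log2(CPM + 0.5) scale (mean ± SD, n = 3 courses).

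In CD47- cells SLC30A1 was 161 CPM untreated, 168 with CD3+CD28, 164 with CD3+CD28+TSP1 and 178 with TSP1 at 1 h. It was 157, 164 and 187 CPM at 3 h, and 63.7, 56.0 and 68.6 CPM at 6 h. The 1 h and 3 h values overlapped, with a log2 difference of -0.012 ± 0.081 within courses, and the lower level appeared at 6 h alone. The mean at 6 h was 2.68-fold below that of 1 h (log2 difference -1.44 ± 0.0936, n = 3 courses). The difference between the lines varied with time. At 1 h all 4 matched pairs had less SLC30A1 in CD47- cells (log2 difference -0.24 ± 0.160), although the ranges overlapped, and per length, in TPM, the 1 h means were 30.2 in WT and 30.8 in CD47- cells, so the direction at 1 h does not hold on that scale. At 3 h it was 1.51-fold higher in CD47- cells (0.59 ± 0.177, 3 of 3 pairs) and at 6 h 1.5-fold higher (0.58 ± 0.113, 3 of 3 pairs), without overlap at either time.

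SLC39A10 (ENSG00000196950.14, chr2:195575977-195737702, plus strand), the importer, moved by time in a way that differed between the lines in sign at 6 h. In WT cells it was 53.3 CPM untreated, 55.9 with CD3+CD28, 49.7 with CD3+CD28+TSP1 and 55.6 with TSP1 at 1 h, then 43.4, 42.4 and 42.7 CPM at 3 h, and 59.5, 62.0 and 58.9 CPM at 6 h. The WT level thus dipped at 3 h (log2 difference from 1 h -0.32 ± 0.0835) and at 6 h lay above every 1 h value (0.16 ± 0.133, higher in 3 of 3 courses). Per length the WT values of 3 h and of 6 h both overlapped with those of 1 h. The WT means per length were 12.3, 11.5 and 14.7 TPM at 1, 3 and 6 h. In CD47- cells it was 79.0, 86.0, 79.9 and 85.8 CPM at 1 h, 48.2, 39.9 and 48.0 CPM at 3 h, and 49.2, 48.5 and 44.9 CPM at 6 h. There the level was lower at both later times, by -0.88 ± 0.0946 and -0.81 ± 0.106 on the log2 scale, without overlap with 1 h. At 1 h the importer was 1.54-fold higher in CD47- than in WT cells in 4 of 4 pairs, and at 6 h it was 1.26-fold lower in 3 of 3 pairs. At 3 h the lines overlapped through the CD47- library that stood apart (39.9 CPM), and the other CD47- values, 48.2 and 48.0 CPM, lay above all 3 WT values.

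MTF1 (ENSG00000188786.10, chr1:37809574-37859592, minus strand), the sensor, differed less between libraries of WT cells than SLC30A1 did. In WT cells it lay between 30.4 and 38.9 CPM, and the 6 h libraries, at 31.5, 30.4 and 31.5 CPM, lay below the rest (log2 difference from 1 h -0.17 ± 0.0396, n = 3 courses). Per length these times overlapped in WT cells, with a highest value of 3.61 TPM at 6 h and a lowest of 3.56 TPM at 1 h. In CD47- cells 9 of 10 libraries lay between 31.1 and 38.9 CPM, and the library that stood apart, CD3+CD28+TSP1 at 3 h, had 54.5 CPM. Without that library the CD47- mean was 35.2 ± 2.19 CPM, against 37.1 CPM with it and 34.8 CPM in WT cells. Per length, with all libraries kept, the means at 1, 3 and 6 h were higher in CD47- cells. They were 4.23, 4.33 and 3.56 TPM in WT against 5.26, 6.73 and 4.35 TPM in CD47- cells. Over all times the ranges per length overlapped, at 3.47 to 5.36 TPM in WT and 4.00 to 10.2 TPM in CD47- cells. At 6 h MTF1 was at 31.1 CPM in WT against 37.0 CPM in CD47- cells, higher in 3 of 3 pairs (log2 difference 0.24 ± 0.0935) and without overlap, and at 1 h and 3 h the lines overlapped.

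**Figure D2:**
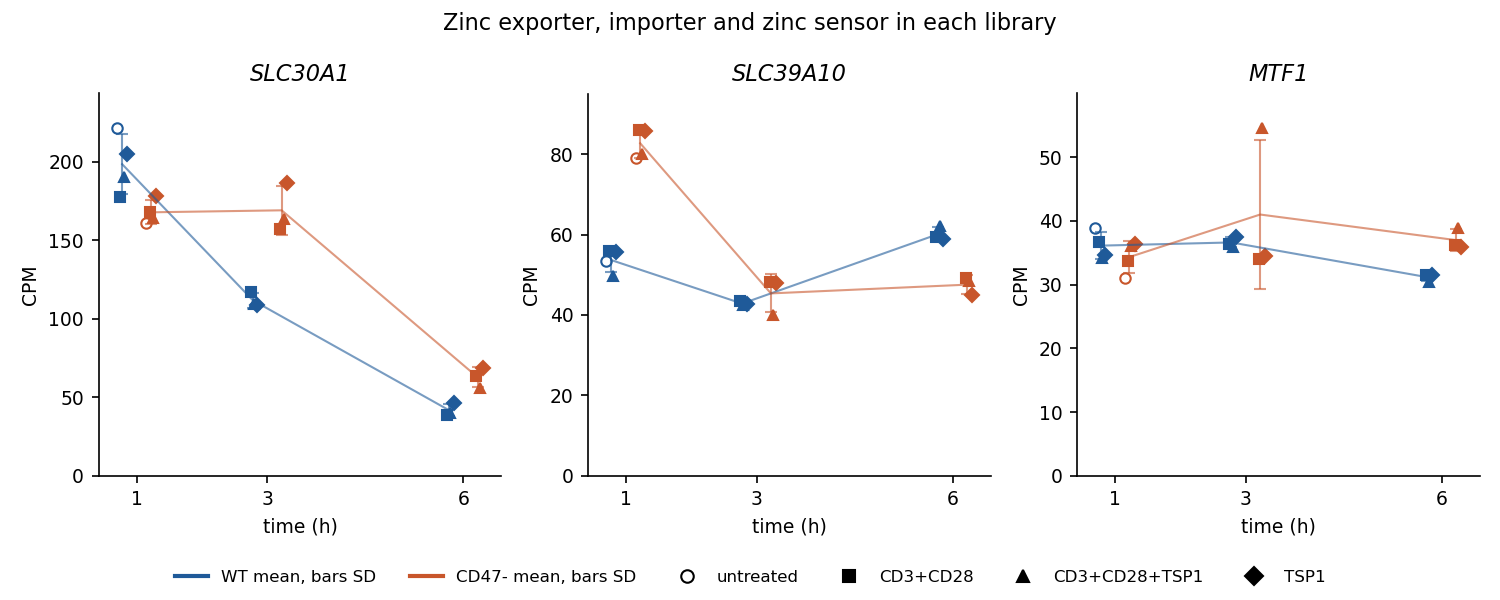
Level in CPM of SLC30A1, SLC39A10 and MTF1 in each of 20 libraries against time in h, with WT in blue and CD47- in orange, a marker for each treatment, and lines joining the mean of each time point with bars of 1 SD (n = 4 libraries at 1 h, 3 at 3 h and 3 at 6 h). SLC30A1 in WT descends from a mean of 199 CPM at 1 h over 112 to 41.8 CPM, while in CD47- cells it holds near 169 CPM until 3 h.

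The metallothionein genes lie in a row on the plus strand of chromosome 16, MT2A (chr16:56608584-56609497), MT1E (chr16:56625475-56627112), MT1F (chr16:56657731-56660698) and MT1X (chr16:56682470-56684196). MT2A, the most abundant, was 15.8 CPM untreated, 16.2 with CD3+CD28, 26.1 with CD3+CD28+TSP1 and 19.96 with TSP1 at 1 h in WT cells. It was 33.1, 32.3 and 29.9 CPM at 3 h and 22.7, 22.9 and 26.5 CPM at 6 h. All 3 h values lay above all other WT values. In CD47- cells it was 26.7, 21.8, 23.4 and 11.6 CPM at 1 h, 30.4, 20.2 and 32.7 CPM at 3 h, and 21.6, 19.8 and 24.9 CPM at 6 h. All time points overlapped there, which rests at 3 h on the 20.2 CPM of the CD3+CD28+TSP1 library that stood apart. Without it, both 3 h values lay above all other CD47- values, and the log2 difference of 3 h from 1 h was 0.96 in place of 0.57, while without the TSP1 course, whose 1 h library was the lowest, it was 0.13. The lines overlapped too, with means of 24.5 CPM (WT) and 23.3 CPM (CD47-) and a log2 difference of -0.077 ± 0.447 over 10 pairs. Per length the direction turned, with means of 54.3 TPM in WT and 60.6 TPM in CD47- cells.

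MT1X was higher in CD47- cells. In WT cells it was 9.78, 10.1, 12.2 and 10.8 CPM at 1 h in the order given above, 14.2, 13.7 and 13.9 CPM at 3 h, and 10.3, 8.58 and 10.3 CPM at 6 h. In CD47- cells it was 22.5, 19.4, 21.6 and 20.5 CPM at 1 h, 18.5, 12.7 and 22.6 CPM at 3 h, and 18.8, 17.8 and 22.3 CPM at 6 h. The mean was 1.73-fold higher in CD47- cells and 9 of 10 pairs were higher (log2 difference 0.76 ± 0.379). The 12.7 CPM came from the library that stood apart. Without it, the CD47- libraries (20.4 ± 1.87 CPM, lowest 17.8) did not overlap with the WT libraries (highest 14.2). Per length the lines did not overlap with all libraries kept, at 14.9 to 31.1 TPM in WT and 32.5 to 52.6 TPM in CD47- cells. In WT cells MT1X was higher at 3 h than at 1 h in 3 of 3 courses (0.33 ± 0.154), as MT2A was (0.63 ± 0.359).

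MT1E was found almost in WT cells alone. It was 2.11, 1.53, 1.47 and 1.303 CPM at 1 h in WT cells, 2.90, 2.60 and 3.29 CPM at 3 h, and 2.42, 2.71 and 3.88 CPM at 6 h. In CD47- cells each library held 0 to 2 counts, below the 3 counts taken as the limit of detection. Summed over 10 libraries, WT cells had 574 counts and CD47- cells 10, a ratio of rates of 59.0, given as a description. In WT cells the level at 3 h and at 6 h lay above that at 1 h in 3 of 3 courses, at 0.82 ± 0.220 and 0.83 ± 0.395 on the log2(CPM + 0.5) scale. MT1F was close to the limit of detection, at 1 to 9 counts per library in WT and 2 to 16 in CD47- cells, and its summed counts of 45 and 111 gave a rate 2.399-fold higher in CD47- cells. The lines overlapped for MT1F, and 8 of 10 pairs were higher in CD47- cells.

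**Figure D3:**
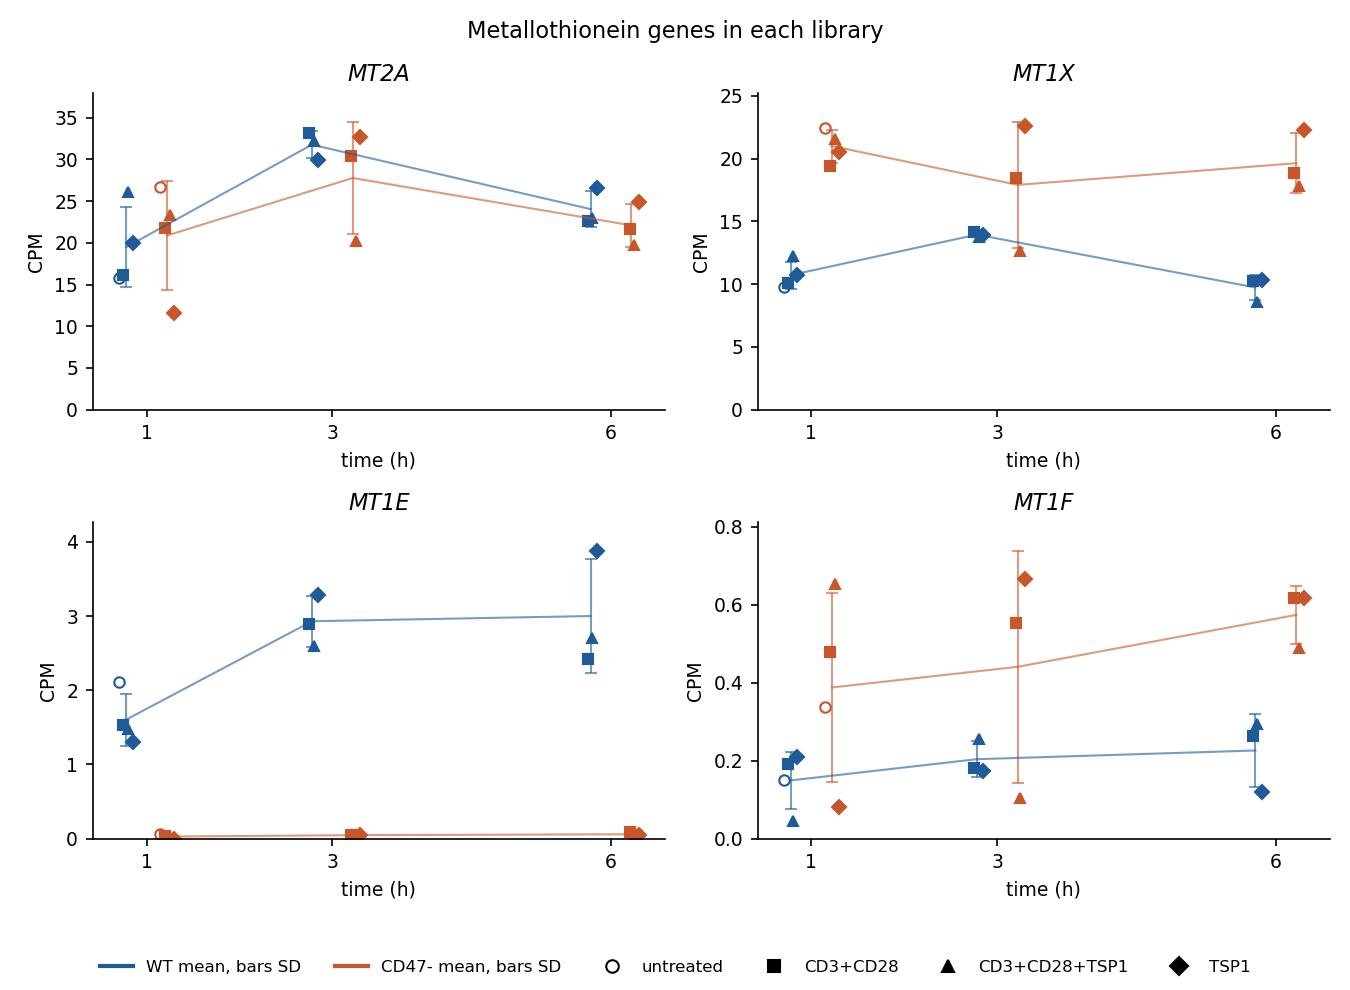
Level in CPM of MT2A, MT1X, MT1E and MT1F in each of 20 libraries against time in h, with WT in blue and CD47- in orange, markers for the treatments, and lines joining the means with bars of 1 SD (n = 4 libraries at 1 h, 3 at 3 h and 3 at 6 h). MT1E lies between 1.303 and 3.88 CPM in WT and at or below 0.0880 CPM in CD47- cells, while the lines overlap in MT2A.

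The makeup of the metallothionein mRNA differed between the lines, and its summed level overlapped. Summed over all MT1 and MT2 genes, without MT3, MT4 and pseudogenes, the level was 38.6 ± 8.31 CPM for WT and 43.5 ± 7.66 CPM for CD47- cells. It was higher in CD47- cells in 8 of 10 pairs (log2 difference 0.18 ± 0.369). With a library left out, the log2 difference of the sum ranged from 0.11 to 0.27. MT2A gave 63.8% of these counts in WT and 53.5% in CD47- cells, MT1X 29.3% and 45.4%, and MT1E 6.35% and 0.0949%. The other 13 metallothionein genes and pseudogenes had 0 to 5 counts each in all 20 libraries. Metallothionein genes are near-identical in parts, so reads could be divided among copies. The deposited counts of MT1E, MT1F and MT2A were whole within 0.005 in 20 of 20 libraries and those of MT1X in 19 of 20. Whether reads shared by copies were given to the right copy was not tested.

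Levels per length are given here in TPM (isoform counts divided by transcript length and scaled to a common total per library). The full length was used, without a correction for fragment size, which weighs most on short transcripts. MT2A-201 has 401 bases and MT1X-201 404, against 5893 for SLC30A1-201. The order between metallothioneins and the longer genes is therefore a description on this scale and may differ with such a correction. This order changed with time. In WT cells at 1 h the means were 41.2 TPM for MT2A, 30.2 for SLC30A1, 19.0 for MT1X, 12.3 for SLC39A10, 4.23 for MTF1, 2.73 for MT1E and 0.284 for MT1F (n = 4 libraries). There SLC30A1, at 23.2 to 36.9 TPM, overlapped with MT2A and lay above all values of MT1X and SLC39A10, while MT1X overlapped with SLC39A10 and MTF1 with MT1E. At 6 h the order in WT cells was MT2A (53.3 TPM), MT1X (18.2), SLC39A10 (14.7), SLC30A1 (6.35), MT1E (4.98), MTF1 (3.56) and MT1F (0.454; n = 3 libraries). By then all SLC30A1 values, at most 7.09 TPM, lay below all of SLC39A10, at least 14.0 TPM, and overlapped with MT1E. MT1E, which overlapped with MTF1 at 1 h, lay above it without overlap at 6 h. In CD47- cells at 1 h the means were 53.7 TPM for MT2A, 43.4 for MT1X, 30.8 for SLC30A1 and 19.8 for SLC39A10, and MT2A and MT1X overlapped. At 6 h they were 49.98, 35.9, 9.88 and 11.3 TPM, and SLC30A1 and SLC39A10 overlapped. MTF1, at 5.26 and 4.35 TPM, MT1F, at 0.720 and 1.08 TPM, and MT1E, at 0.0730 and 0.112 TPM, came last in that order at both times. At 3 h MT2A lay highest in both lines, at 72.8 TPM in WT and 80.3 TPM in CD47- cells.

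Most members were read from a single main transcript. All SLC30A1 counts went to SLC30A1-201, and MTF1-201 took 99.9% in WT and 99.6% in CD47- cells. SLC39A10-201 took 81.4 ± 5.31% in WT and 88.0 ± 6.03% in CD47- cells. MT2A-201 took 95.1% and 93.6%. MT1X-201, the coding transcript, took 76.6 ± 4.20% in WT and 72.9 ± 5.12% in CD47- cells, and MT1X-204, annotated as a retained intron, took 20.3 ± 4.58% and 25.2 ± 5.34%. With counts divided by length, the MT1X-201 share was 91.6% in WT and 90.9% in CD47- cells. MT1E in WT cells was divided between MT1E-201 (62.2 ± 11.02%) and MT1E-203 (31.1 ± 9.67%), and divided by length the shares were 46.9 ± 11.1% and 48.3 ± 11.1%.

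As a background for these descriptions, 40.4% of 16327 tested genes passed the edgeR test between the lines, and in 11.5% the lines did not overlap in any library. Among the 6 members tested, MT1E was the one without overlap, and without the CD47- CD3+CD28+TSP1 library of 3 h MT1E and MT1X were, against 13.2% of all genes. In WT cells 5 of 6 members did not overlap between 1 h and 3 h and 4 of 6 between 1 h and 6 h, against 41.5% and 56.5% of all genes. In CD47- cells the counts were 1 and 2 of 6, against 38.2% and 61.1%. The members were selected on these contrasts, so nothing is read from the counts.

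The treatments were compared next, since they ask whether engaging the T cell receptor or CD47 moved the zinc genes. In 4 contrasts, each in WT, in CD47-, averaged over the lines and as a difference between the lines, 96 tests were made on the 6 members, and 0 passed at an adjusted p under 0.05 by edgeR, with a smallest adjusted p of 0.283. Of these, 12 drew on the 0 to 2 counts per library of MT1E in CD47- cells, which gave an SE of 0.841 to 1.24 on the log2 scale in the comparisons within that line. The other tests number 84. The count passed was 0 with DESeq2 and with limma voom, and 8 tests, none of them of MT1E in CD47- cells, had an unadjusted p under 0.05. Across all genes the percentage called was 0 in all but 2 of the 16 comparisons of this fit, the exceptions being CD3+CD28+TSP1 against TSP1 in WT cells (0.0919%) and the difference between the lines in TSP1 against untreated (0.00612%). In the comparisons with 0 calls, 366 to 2636 genes had an unadjusted p under 0.05, and DESeq2 called 0 to 60 genes. In the 2 exceptions DESeq2 called 54 and 191 genes, in the order given. Without the low-count filter, edgeR called 84 to 790 of 41107 genes in the 16 comparisons.

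SLC30A1 had, for TSP1 in activated WT cells, a log2 fold change of 0.01 and an interval of 2 SE from -0.14 to 0.16, so a change of the size seen with time lay outside the interval. In activated CD47- cells the value was -0.05 ± 0.073 (SE). Against TSP1 alone, CD3+CD28+TSP1 gave -0.20 ± 0.073 in CD47- cells (lower at 3 of 3 times, unadjusted p = 0.016, adjusted p = 0.28) and -0.10 ± 0.073 in WT cells. Averaged over the lines it was -0.15 ± 0.052 (unadjusted p = 0.012, adjusted p = 0.33). For TSP1 against untreated the lines differed by 0.34 ± 0.156 (unadjusted p = 0.047, adjusted p = 0.35). Against the single untreated library, CD3+CD28 gave -0.26 ± 0.110 in WT cells (unadjusted p = 0.035, adjusted p = 0.58). None of these passed the test.

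MTF1 had a log2 fold change of 0.30 ± 0.108 for TSP1 in activated CD47- cells (unadjusted p = 0.014, adjusted p = 0.46), and of -0.06 ± 0.108 in WT cells. Within time points the CD47- differences were 0.096, 0.67 and 0.10 on the log2(CPM + 0.5) scale at 1, 3 and 6 h, the second from the library that stood apart. Without that library the fitted value was 0.10. MT1X had -0.35 ± 0.141 for CD3+CD28+TSP1 against TSP1 in CD47- cells (adjusted p = 0.29), and -0.14 without the same library. SLC39A10 and MT2A had no unadjusted p under 0.05 in any contrast. For MT2A the intervals were wide, from -0.25 to 0.68 for TSP1 in activated WT cells and from -0.65 to 0.29 in CD47- cells, so changes within them were not detectable here.

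**Figure D4:**
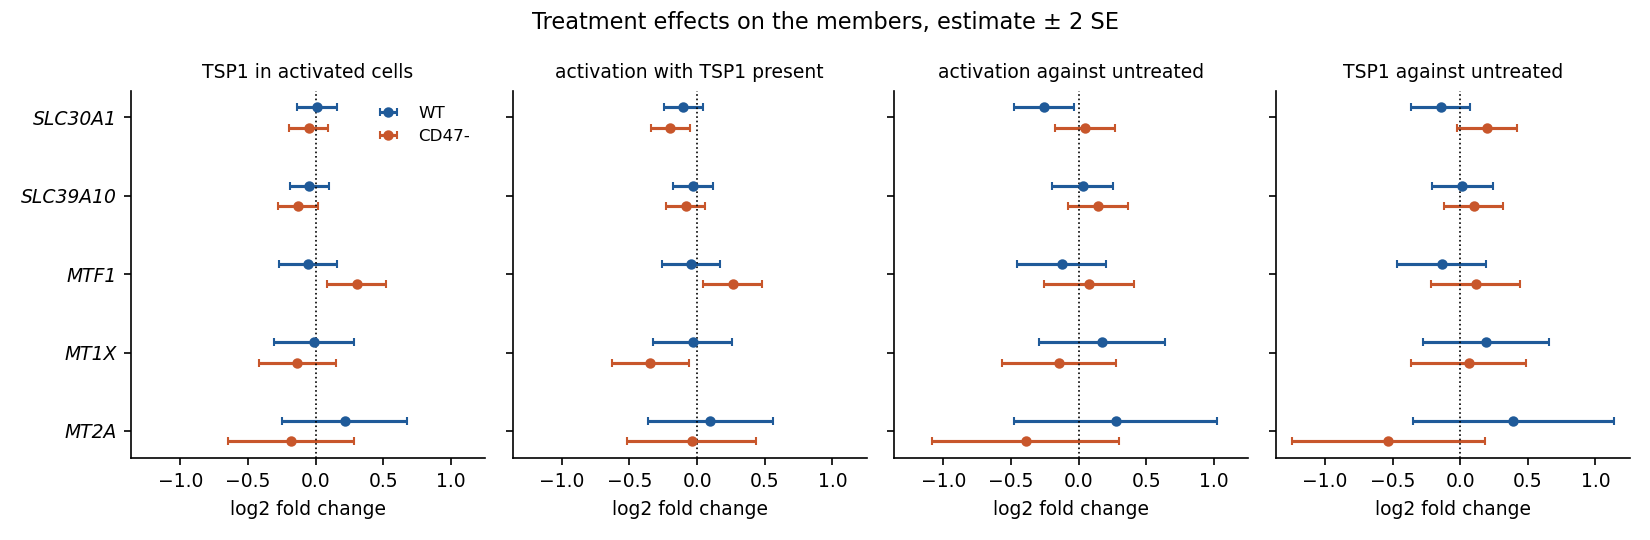
Log2 fold change of 5 members in 4 treatment contrasts, with WT in blue and CD47- in orange, as the edgeR estimate with bars of 2 SE. MT1E, which is at most 2 counts per library in CD47- cells, is left out. No estimate passed the test, and the intervals of MT2A are the widest.

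The other genes of zinc handling were taken from a list of 38 genes that holds the remaining exporters and importers, the other metallothioneins and the partners TMEM163, TMC6 and TMC8, and 19 of them passed the filter. Between the lines 6 were higher in CD47- cells, 3 were lower and 10 did not pass. These 9 of 19 stand against 40.4% of all genes called, with a median log2 fold change of 0.059 against -0.0066 over all genes. The list was chosen with earlier results of these data known, so its counts and p-values are given as a description. SLC30A3, an exporter known for loading synaptic vesicles with zinc, had 0.462 ± 0.128 CPM in WT against 3.04 ± 1.19 CPM in CD47- cells (log2 fold change 2.71 ± 0.243 SE, adjusted p = 4.9e-09). SLC30A4, an exporter of intracellular vesicles, was lower, with 19.8 ± 1.36 CPM in WT against 9.33 ± 1.16 CPM in CD47- cells (-1.09 ± 0.079, adjusted p = 1.5e-10). SLC39A4, an intestinal importer, was lower by -0.60 ± 0.132 and SLC39A11 higher by 0.67 ± 0.188. TMC6 and TMC8, which form a complex reported to bind ZnT1, the protein of SLC30A1, were both higher in CD47- cells, by 1.45 ± 0.279 and 1.48 ± 0.138, with 22.4 ± 3.81 CPM of TMC8 in WT against 62.7 ± 16.0 CPM in CD47- cells.

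With time, the percentages of all genes called were 34.3% in WT and 38.0% in CD47- cells at 3 h against 1 h, and 50.5% and 53.0% at 6 h. Of the 19 zinc genes, 3 rose and 1 fell in WT cells at 3 h, and 5 rose and 3 fell in CD47- cells. At 6 h, 9 rose and 2 fell in WT cells and 7 rose and 3 fell in CD47- cells, with medians of 0.22 and 0.14 against -0.0031 and -0.0034 over all genes. SLC39A14, an importer that also carries iron and manganese, rose from 45.8 to 107 CPM in WT and from 64.6 to 137 CPM in CD47- cells between 1 and 6 h (1.19 ± 0.065, adjusted p = 8.9e-09, and 1.04 ± 0.064, adjusted p = 2.0e-08). SLC30A6, a member of the exporter family found at the Golgi, rose by 0.77 ± 0.079 in WT and 0.65 ± 0.078 in CD47- cells. TMC6 rose by 0.76 ± 0.166 and 1.36 ± 0.157. SLC30A3 had the largest fall of the list at 6 h, by 1.23 on the log2 scale in CD47- cells (SE 0.217, adjusted p = 0.00028), and in WT cells it had -0.72 ± 0.311 and did not pass. SLC39A7, which releases zinc from the endoplasmic reticulum, fell by 0.80 in CD47- cells (SE 0.126) and by 0.40 in WT cells (SE 0.126, adjusted p = 0.017). The count in CD47- cells at 3 h was 5 in place of 8 without any 1 of 6 libraries, which were CD3+CD28, CD3+CD28+TSP1 and TSP1 at 1 h and at 3 h, and the count in WT cells at 6 h was 7 in place of 11 without CD3+CD28+TSP1 at 6 h.

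**Figure D5:**
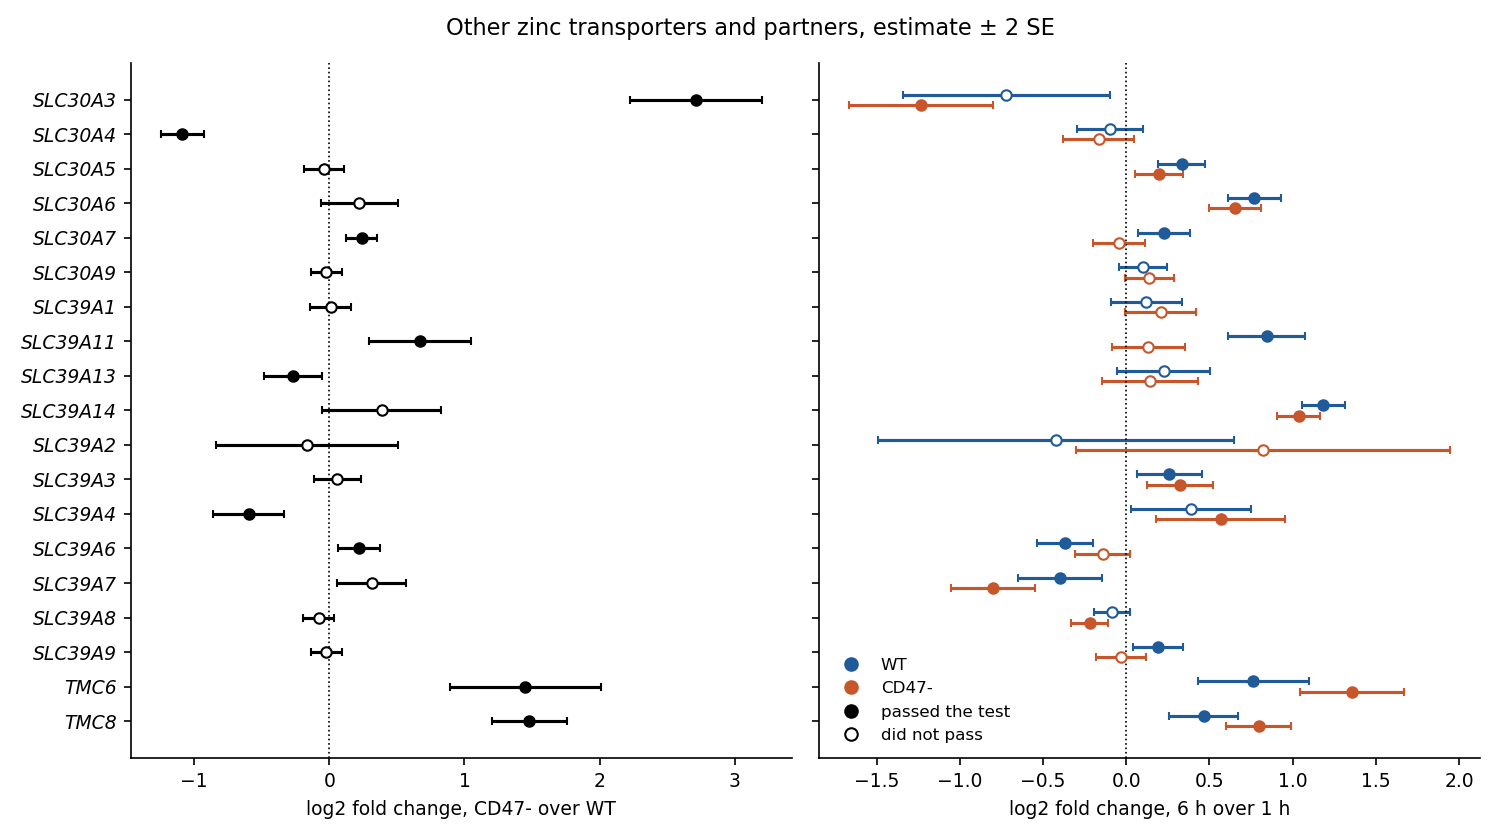
Log2 fold change of 19 other zinc genes between the lines (left) and between 6 h and 1 h in each line (right, WT in blue and CD47- in orange), as the edgeR estimate with bars of 2 SE. Filled points passed an adjusted p of 0.05. SLC30A3 has the largest difference between the lines, 2.71, and SLC39A14 rises in both lines.

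Lists of neighbouring systems, also chosen with earlier results of these data known, were counted in the same way, against the same shares of all genes. Of 8 tested genes of oxidative and metal stress, 2 were higher and 1 lower in CD47- cells. At 3 h 6 rose and 1 fell in WT cells and 4 rose and 1 fell in CD47- cells, and at 6 h 4 rose and 1 fell in WT cells while 6 rose and 0 fell in CD47- cells. SLC7A11, the cystine importer, rose in both lines at 3 h, by 0.47 in WT (adjusted p = 0.00069) and 1.62 in CD47- cells (adjusted p = 1.3e-07). At 6 h it fell by 1.59 on the log2 scale against 1 h in WT cells (SE 0.088) and rose by 1.70 ± 0.085 in CD47- cells. NQO1, a quinone reductase, rose by 1.58 ± 0.174 and 1.27 ± 0.157 at 6 h. Of 6 copper genes, 1 was higher and 1 lower between the lines, with the copper chaperone ATOX1 higher by 0.36 ± 0.080. At 3 h 2 copper genes rose and 0 fell in WT cells, and 0 rose and 2 fell in CD47- cells. At 6 h 2 rose and 0 fell in WT cells, and 1 rose and 2 fell in CD47- cells. Of 7 iron genes, 2 were higher and 1 lower in CD47- cells, with FTL, the ferritin light chain, higher by 0.72 ± 0.086. TFRC, the transferrin receptor, rose by 1.35 ± 0.085 in WT and 1.14 ± 0.085 in CD47- cells at 6 h. Of the iron genes, 2 rose and 1 fell in WT and 1 rose and 4 fell in CD47- cells at 3 h, and 3 rose and 0 fell in WT and 1 rose and 2 fell in CD47- cells at 6 h. SLC40A1, the iron exporter ferroportin, fell by 0.60 in CD47- cells at 6 h (SE 0.0886). Of 8 glucocorticoid response genes, listed because the medium holds hydrocortisone, 4 were higher and 4 lower in CD47- cells. At 3 h 0 of them rose and 3 fell in each line. At 6 h 1 rose and 6 fell in WT cells and 1 rose and 2 fell in CD47- cells. NR3C1, the glucocorticoid receptor, was lower in CD47- cells (-0.66 ± 0.089) and SGK1 higher (1.34 ± 0.106). Their part in the metallothionein levels was not tested.

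Near the metallothionein row, within 250 kb on either side, 7 other genes were tested between the lines. HERPUD1, a gene of the endoplasmic reticulum stress response, was lower in CD47- cells, with 129.9 CPM in WT against 53.5 CPM in CD47- cells (-1.28 ± 0.191, adjusted p = 1.1e-05), and the other 6 did not pass. This 1 of 7 stands against 40.4% of all genes, and the window and gene were chosen after the values were seen.

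The genes with the pattern most like that of each member were named by the Pearson correlation of log2 CPM over 20 libraries, after each line was centred on its mean, among 13151 genes. All libraries of a time point share that time, and no test was made. For SLC30A1 they were RANBP9 (r = 0.990), OTUD3 (0.988), AKTIP (0.973), KBTBD2 (0.969) and NIPBL-DT (0.969). For SLC39A10 they were FBXO38 (0.977), ACTR1A (0.966) and CLINT1 (0.959). For MTF1 they were CELF1 (0.929), KCNC4 (0.922) and SCN8A (0.921), and for CELF1, r was 0.773 within WT and 0.974 within CD47- cells (10 libraries each). For MT2A they were the histone genes H4C6 (0.905), H4-16 (0.894) and H3C7 (0.887). For MT1X they included SNX3 (0.841) and TEX19 (0.813). For MT1E they were NETO2 (0.876), CD226 (0.861) and ZNF287 (0.861), which rests on WT cells, with r of 0.883 to 0.930 there and 0.0722 to 0.398 in CD47- cells. For MT1F, which was close to the limit of detection, they were BCYRN1 (0.821), SMIM19 (0.812) and PPP1R7 (0.759). Without the library that stood apart, r over the other 19 libraries was 0.782 for CELF1, 0.776 for KCNC4 and 0.782 for SCN8A with MTF1, and 0.752 for SNX3 and 0.723 for TEX19 with MT1X. With MT1F it was 0.745 for BCYRN1, 0.719 for SMIM19 and 0.631 for PPP1R7. Within the 9 other CD47- libraries, SNX3 and MT1X had an r of 0.327, against 0.791 with that library.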

How the data were processed

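RNA from 20 Jurkat and JinB8 cultures was sequenced with the TruSeq mRNA kit. Per the labels and the methods, the authors used Cutadapt 1.18 for trimming, STAR 2.4.2a for alignment to hg38 (GRCh38), and deposited RSEM 1.3.3 expected counts per gene and isoform on GENCODE 36, without normalization. The strand setting and the batch removed with ComBat are not given in the sources used here, so neither step was repeated and reads of antisense genes cannot be told apart. Each table holds 2 columns that belong to no sample, which were not used. Each sample was placed by its label, and each condition has 1 library. The paper gives anti-CD3 in μg/mL and the labels in mg/mL, so no value is printed.

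Counts were rounded and fitted in edgeR 4.0.16 (R 4.3.3) with TMM factors, filterByExpr by line (minimum count 10, total 15) and quasi-likelihood tests, adjusted by the Benjamini-Hochberg method over 16327 genes at 0.05. The line comparison used 10 libraries per line. Treatments and times shared a model with a coefficient per line and treatment and a term for 3 h and 6 h in each line. CPM used TMM factors, and log2 CPM a pseudocount of 0.5. Lengths and positions came from GENCODE 44, which held 229321 of 232184 isoforms and 99.1% of their counts. The members and lists were chosen with earlier results of these data known. Named genes were the members, at most 4 called genes by smallest p per list and contrast, and the 3 most alike genes per member (5 for SLC30A1). The text names some of these, and certain genes are not reported here. Libraries of the 2 lines that share treatment and time were matched, and their deviations from the line mean correlated at 0.126 to 0.602 in 10 pairs. Only 2 of 10 libraries correlated best with their own partner. The pairs, which also share a time, were used as a block in an alternative fit. Other alternatives were DESeq2 1.42.0, limma 3.58.1 voom, upper-quartile factors, library totals, no filter, 1 CPM in every library, other pseudocounts, counts divided by transcript length, a time effect shared by both lines, and each library left out in turn. The library left out of overlaps and of likeness, the levels per length at each time, the count without MT1E in CD47- cells and the 250 kb window were chosen after seeing the data. The tests were also run on simulated data, and the outcome of that run is not given here. Promoters came from RefSeq (GRCh38.p14). Totals ranged from 16107921 to 31737616 counts, and intervals of 2 SE come from the fits and include the spread between cultures.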

Additional observations from a re-analysis of the deposited data

Results flagged for a closer look

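MTF1 was 54.5 CPM in the CD47- CD3+CD28+TSP1 library of 3 h, far above the next of the 10 CD47- libraries at 38.9 CPM. MT1X was 12.7 CPM in the same library, below the next lowest at 17.8 CPM. Per length MT1X was not lowest there, since the CD47- libraries of 3 h had at least 37.4 TPM. The lowest CD47- value per length, 32.5 TPM, came from 6 h. Among 28 groups tested for a single distant value, the 2 CPM values stood apart, and both come from 1 library. Chance gives about 1 in 20 groups, a rate for independent groups, which genes of 1 library are not. That library also had the lowest total count and the lowest correlation with its line. Its part in both values was not tested.

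SLC39A10 moved in opposite directions with time in the 2 lines, at 0.162 on the log2 scale between 1 and 6 h in WT cells, in 3 of 3 courses, and at -0.814 in CD47- cells, in 3 of 3 courses. With a library left out the WT value ranged from 0.085 to 0.20, and per length the WT values of 1 h and 6 h overlapped. The difference between the lines was not tested, since the gene was selected on time and line. MTF1 with TSP1 in activated cells had a mean log2 difference of -0.0557 in WT and 0.291 in CD47- cells over 3 time points each, with opposite signs in the samples of the lines, and neither passed the test (edgeR adjusted p of 1 and 0.46). The interaction in edgeR was 0.36 (unadjusted p = 0.034, adjusted p = 0.97), and it ranged from 0.16 to 0.47 when single libraries were omitted, the lowest without the CD47- CD3+CD28+TSP1 library of 3 h.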

How the results depend on the processing

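The counts of members called for a treatment stayed at 0 under every alternative run and with each library left out, except that without the low-count filter the difference between the lines in a treatment response had 1 called member, MT2A in TSP1 against untreated (-0.96, adjusted p = 0.012). In that unfiltered contrast 790 of 41107 genes were called, 713 of them lower, against 1 of 16327 with the filter. With the filter the MT2A value was -0.92 (adjusted p = 0.45), and it ranged from -1.18 to -0.30 with a library left out, the last without CD47- TSP1 at 1 h. The number of zinc genes called between the lines was 9, was 11 with the matched pairs as a replicate block, and ranged from 7 to 10 with a library left out. The block, which called 8957 genes against 6596, changed the call of 1 named gene, SLC39A13 (-0.26, adjusted p = 0.057). Without a replicate block and time term in the treatment model, 0 members were called. Zinc genes called in CD47- cells at 3 h fell from 8 to 4 without the filter, and with a library left out ranged from 5 to 8. Those in WT cells at 6 h ranged from 7 to 11. A time effect shared by both lines, estimated over 20 libraries and so not a count in WT cells, called 7 zinc genes at 3 h, against 4 in WT cells alone. The cause was not tested.

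Scaling by library totals moved the median of all genes between the lines to 0.091, against -0.0092 with TMM. It gave -2.13 for SLC30A1 in WT cells at 6 h, 0.13 in CD47- cells at 3 h, where TMM gave -0.012 with the opposite sign, and -0.23 and -0.75 for SLC39A10 at 3 h in WT and CD47- cells. A pseudocount of 1 or 2 CPM gave -1.68 or -1.09 for MT1E between the lines, which is built into the low counts. No called value changed sign. Among single genes, 21 calls were lost under an alternative and 105 with a library left out, most often those of SLC39A13 and ATP7A between the lines and of SLC39A2 and SLC39A14 at 3 h in CD47- cells. Divided by length, the SLC39A10-201 share was 57.8% in WT and 70.9% in CD47- cells. Single libraries per condition and 0 to 16 counts per library for MT1F, and for MT1E in CD47- cells, limit what can be said of those genes.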
